A study of Mus musculus with 12 samples.

Results

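The genes described here are 7 genes of mouse chromosome 12, Grhl1, Gm31508, Sntg2, Acp1, Dus4l, Nampt and F730043M19Rik, which lie within 12 Mb of Ahr, the gene knocked out in the livers compared. They were picked by symbol, as genes near Ahr whose liver level differed between the genotypes in an earlier reading of these same data. All 7 were found among the 27304 genes of the count table, and all 7 lie on the low-coordinate side of Ahr. Because the genotype difference chose them, it is given for them as a description, and nothing is read from how many of them pass a threshold on it. The label under which they were grouped, passenger genes, says where flanking DNA could have come from. Which mouse strain the chromosome 12 DNA of these livers came from was not tested.

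RNA of 12 livers was sequenced, each liver labelled as Apoe-/- and fed HFD for 12 weeks. The 6 controls carry only the Apoe-/- genotype (3 males and 3 females). The other 6, here called Ahr-null after their label, are Apoe-/-AhR-/- (3 males and 3 females). All 12 mice thus lack apolipoprotein E, a carrier of plasma lipoproteins, so no liver shows the loss of Ahr with Apoe intact. No source used here names the alleles, the strain of each line or the age at which the diet began. Replicate numbers only name the livers, and nothing says more than that each library is 1 liver, so p-values measure the spread between these libraries.

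Ahr encodes the aryl hydrocarbon receptor, a transcription factor that enters the nucleus when it binds a ligand, pairs with ARNT and binds DNA with the core letters GCGTG. In liver it is known for switching on the drug-metabolising enzymes Cyp1a1 and Cyp1a2. A targeted allele is inherited with the stretch of chromosome around it. When the allele was made in cells of one strain and crossed into another, alleles of the first strain at nearby genes can stay linked to it, and such genes are called passengers.

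The positions are those of GENCODE on GRCm38. Grhl1 (ENSMUSG00000020656, chr12:24572283-24617391, plus strand) encodes a grainyhead transcription factor of epithelia and lies 10.9 Mb from Ahr. Gm31508 (ENSMUSG00000113387, chr12:28910229-29041874, plus strand) is a long intergenic noncoding RNA 6.46 Mb away. Sntg2 (ENSMUSG00000020672, chr12:30174482-30373375, minus strand) encodes a syntrophin, an adaptor of the dystrophin complex at the cell membrane, and lies 5.12 Mb away. Acp1 (ENSMUSG00000044573, chr12:30893326-30911589, minus strand) encodes the low molecular weight protein tyrosine phosphatase and lies 4.59 Mb away. Dus4l (ENSMUSG00000020648, chr12:31640050-31654826, minus strand) encodes a tRNA dihydrouridine synthase and lies 3.84 Mb away. Nampt (ENSMUSG00000020572, chr12:32819545-32853349, plus strand) encodes the rate-limiting enzyme that recycles nicotinamide into NAD and lies 2.64 Mb away. F730043M19Rik (ENSMUSG00000052125, chr12:33111711-33147597, minus strand) is a noncoding RNA that the annotation classes as transcribed from a bidirectional promoter, and it lies 2.35 Mb away. Ahr itself (ENSMUSG00000019256) spans chr12:35497974-35535038 on the minus strand.

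Since the receptor binds GCGTG, the 250 bases before the RefSeq start of each gene were searched for GCGTG on both strands (CACGC on the opposite strand), and all 7 genes matched an entry of the RefSeq promoter table on GRCm38.p6. Nampt held 5 matches and Grhl1, Gm31508, Sntg2 and F730043M19Rik held 1 each, while Acp1 and Dus4l held none. The motif stood in the windows of 5 of the 7 genes and in 28.2% of the 32851 windows of the table, and 2.77% of the windows held 3 or more matches, as that of Nampt did. The 7 windows were 56.4 to 75.6% G and C, beside a median of 52.4% over the table, and the part of this in the matches was not tested. The RefSeq start of Nampt lies 790 bases inside the GENCODE gene, so its window lies within that gene body. The longer core TNGCGTG was in the window of Gm31508 alone among the 7 and in 4.1% of all windows. A match is a run of letters and not a measured binding site. The following stretches are the parts of 4 windows that lie in no annotated gene body, shown for Acp1, which has the largest fitted genotype difference among the 3 genes lower in the Ahr-null livers, and for 3 genes that are higher, with the motif on either strand in capitals. They are Grhl1 at chr12:24572037-24572231 (plus strand), Gm31508 at chr12:28909979-28910228 (plus strand), Sntg2 at chr12:30373393-30373625 (minus strand) and Acp1 at chr12:30911620-30911667 (minus strand).
Grhl1: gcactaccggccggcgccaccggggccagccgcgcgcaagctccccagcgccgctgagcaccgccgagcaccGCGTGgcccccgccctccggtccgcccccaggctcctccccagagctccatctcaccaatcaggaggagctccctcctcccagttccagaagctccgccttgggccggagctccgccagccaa
Gm31508: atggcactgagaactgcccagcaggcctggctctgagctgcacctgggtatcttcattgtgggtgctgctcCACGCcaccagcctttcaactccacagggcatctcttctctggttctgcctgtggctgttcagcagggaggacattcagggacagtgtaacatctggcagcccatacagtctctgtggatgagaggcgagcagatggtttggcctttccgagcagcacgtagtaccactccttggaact
Sntg2: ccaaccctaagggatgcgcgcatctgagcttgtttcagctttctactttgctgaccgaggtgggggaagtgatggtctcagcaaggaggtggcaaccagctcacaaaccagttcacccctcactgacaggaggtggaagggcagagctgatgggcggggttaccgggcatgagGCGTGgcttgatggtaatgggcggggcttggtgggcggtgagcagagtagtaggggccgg
Acp1: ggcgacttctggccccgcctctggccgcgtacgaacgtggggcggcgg
The capitals of Gm31508 read CACGC, the motif on the opposite strand, whereas those of Grhl1 and Sntg2 read GCGTG on the strand of the gene. The short Acp1 stretch holds no match and lies between the starts of Acp1 and its neighbour Sh3yl1.

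The libraries held 9794253 to 18924880 counts, and 13641 genes passed the filter on low counts. Mitochondrial genes took 46.7 to 69.8% of the counts in controls and 30.4 to 59.8% in Ahr-null livers, 3 of which lay below every control, and the part of this in the levels below was not tested. Levels are CPM, counts per common library total, after TMM scaling, a scaling that sets the bulk of genes equal between libraries, with factors from 0.579 to 1.53, and 1 count was worth at most 0.109 CPM. All 10 hepatocyte markers had counts, and their summed level was 20873 to 27019 CPM in controls and 24752 to 73448 CPM in Ahr-null livers. The highest sum was that of Ahr-null female replicate 1, where Alb alone gave 55133 CPM, and the other livers reached at most 41680 CPM. The markers did not move together. Apoa1 was at 7433 to 11483 CPM in controls and 9314 to 14329 CPM in Ahr-null livers, but Cyp2e1 at 477 to 1122 and 147 to 495 CPM. Of the livers, 2 stood apart, control male replicate 1 with 429.6 CPM and Ahr-null female replicate 1 with 685.5 CPM summed over 30 markers of neurons and glia, against 69.6 to 126.5 CPM in the other 10 livers. The same Ahr-null liver held the most cholangiocyte transcripts in sum (259.9 CPM against 24.8 to 117.5 CPM in the other 11 livers), of which Spp1 alone gave 202.8 CPM. Epcam (5.79 CPM) and Sox9 (45.6 CPM) were also highest in it, while Krt19 and Krt7 lay within the range of the other livers. That liver correlated least with its replicates across genes (r of 0.805 and 0.811, against 0.938 to 0.979 for all other replicate pairs). The targeted gene did not separate the genotypes, as Ahr was at 12.40 to 25.02 CPM in controls and 13.7 to 24.5 CPM in Ahr-null livers (log2 difference 0.13 ± 0.18 SE, edgeR adjusted p = 0.800). Its target Cyp1a2 did: it was at 452.0 to 1169.5 CPM in controls and 47.0 to 217.2 CPM in Ahr-null livers, and fell by 3.05 ± 0.36 on the log2 scale (edgeR adjusted p = 0.00663). In whole liver, fewer cells of a type and less RNA per cell cannot be told apart.

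Per kilobase of exon, control livers held most Acp1 (6.61 ± 1.17 CPM per kb, SD, n = 6), then Nampt (4.36 ± 0.958) and Dus4l (3.75 ± 0.337). Sntg2 followed at 1.75 ± 0.671 CPM per kb. The last were F730043M19Rik (0.165 ± 0.0535), Gm31508 (0.108 ± 0.0398) and Grhl1 (0.0664 ± 0.0436). The ranges of Acp1 and Nampt overlapped, as did those of Nampt and Dus4l, of F730043M19Rik and Gm31508, and of Gm31508 and Grhl1. Sntg2 overlapped neither neighbour in this order.

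Across genotypes the 7 genes fell into 2 directions. Grhl1, Gm31508, Sntg2 and F730043M19Rik had higher mean levels in the Ahr-null livers, by 1.63 to 3.88 times, and Acp1, Dus4l and Nampt had lower ones, by 1.34 to 2.95 times. After TMM scaling, no level of control and Ahr-null livers overlapped for 3 of the 7 genes in all 12 livers (Grhl1, F730043M19Rik and Dus4l). Of all tested genes, 1.47% had this property. Without Ahr-null female replicate 1, 6 of the 7 did not overlap, all but Sntg2, against 2.98% of all tested genes. In the edgeR fit of all 12 livers 2 of the 7 were under an adjusted p of 0.05 (Grhl1 and F730043M19Rik) where 1.06% of all tested genes were. It was 6 of 7, all but Dus4l, without Ahr-null female replicate 1 (4.78% of all tested genes) and 4 of 7 without both livers that held neural transcripts (3.14%). The genes were chosen on this contrast, so these counts describe the choice and nothing is read from them.

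**Figure D1:**
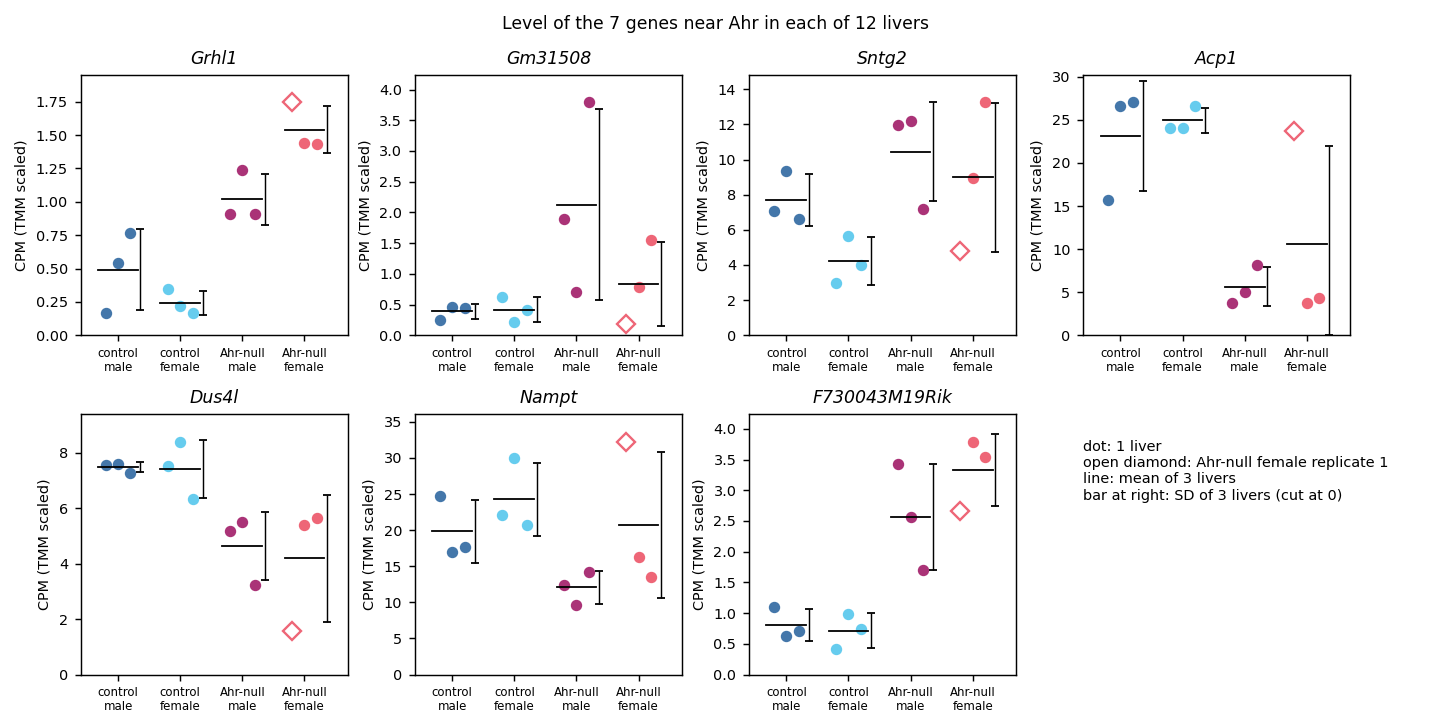
Level of each of the 7 genes (CPM after TMM scaling, linear axis from 0) in the 4 groups of 3 livers, with 1 point per liver, the mean as a line and the SD as a bar. Ahr-null female replicate 1 is the open diamond: it lies among the controls for Acp1 (23.7 CPM) and among the other Ahr-null livers for F730043M19Rik (2.66 CPM).

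Acp1, the phosphatase gene, was at 15.7, 26.6 and 27.0 CPM in control males 1, 2 and 3, and the control females held 24.1, 24.1 and 26.6 CPM. The Ahr-null males were at 3.71, 5.04 and 8.21 CPM, and Ahr-null females 1, 2 and 3 at 23.7, 3.79 and 4.36 CPM. Thus 5 of the 6 Ahr-null livers lay below every control, and Ahr-null female replicate 1 lay inside the control range, just below the 3 control females. The mean was 24.0 ± 4.26 CPM (SD, n = 6) in controls and 8.13 ± 7.80 CPM in Ahr-null livers, or 5.02 ± 1.86 CPM (n = 5) without that liver. The control mean was 2.95 times the Ahr-null mean, and 4.78 times without it. The fitted log2 difference moved from -1.64 ± 0.41 to -2.30 ± 0.22 when it was left out. The lowest control was control male replicate 1 and the highest Ahr-null liver was Ahr-null female replicate 1, the pair with neural transcripts. Without both, the control mean was 5.11 times the Ahr-null mean.

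Dus4l, the tRNA-modifying enzyme, had 7.58, 7.59 and 7.26 CPM in control males, and the control females held 7.52, 8.40 and 6.33 CPM. The Ahr-null males held 5.17, 5.51 and 3.24 CPM, and the Ahr-null females 1.56, 5.41 and 5.63 CPM. After TMM scaling all 6 Ahr-null livers lay below all 6 controls, and Ahr-null female replicate 1 was the lowest of all 12. Before scaling the genotypes overlapped. Ahr-null male replicate 1 had 131 of 17363455 counts, a larger share than the 77 of 15845965 in control female replicate 2. The control mean of 7.45 ± 0.669 CPM (SD, n = 6) was 1.69 times the Ahr-null mean of 4.42 ± 1.66 CPM, and 1.49 times without that liver. The fitted log2 difference was -0.75 ± 0.27, and -0.55 ± 0.18 without it. Scaling by library size alone moved it to -0.26 in all 12 livers.

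Nampt, the NAD salvage gene, had 24.8, 17.0 and 17.7 CPM in the control males and 22.1, 30.0 and 20.6 CPM in the control females. The Ahr-null males held 12.3, 9.69 and 14.2 CPM and the Ahr-null females 32.2, 16.3 and 13.5 CPM. Ahr-null female replicate 1 held the highest level of all 12 livers, while the other 5 Ahr-null livers lay below every control. The control mean was 22.03 ± 4.84 CPM against 16.4 ± 8.06 CPM in Ahr-null livers (SD, n = 6 each), a ratio of 1.34, and 1.67 without that liver. The fitted log2 difference was -0.47 ± 0.23, and -0.69 ± 0.17 without it. Scaling by library size alone, which shifted the median log2 difference of all tested genes by 0.50, turned the Nampt difference to 0.09.

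F730043M19Rik, a noncoding RNA, had 13, 8 and 11 counts in control males and 6, 9 and 9 in the females. The Ahr-null males had 87, 33 and 43 counts, and the Ahr-null females 29, 63 and 64. In scaled levels the controls held 0.414 to 1.09 CPM and the Ahr-null livers 1.70 to 3.79 CPM. Every Ahr-null liver, female replicate 1 included, lay above every control. The Ahr-null mean of 2.95 ± 0.785 CPM (SD, n = 6) was 3.88 times the control mean of 0.760 ± 0.247 CPM. The fitted log2 difference was 1.96 ± 0.31, and 2.04 ± 0.31 without Ahr-null female replicate 1. Its exons overlap 279 bases of the antisense gene Gm16267, which the count table does not list, and no source used here gives the strand setting of the counting, so antisense reads could be among its counts.

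Grhl1, the epithelial transcription factor, was close to the counting limit in controls, with 2, 7 and 12 counts in males and 5, 2 and 2 in females. Its counts were 23, 16 and 23 in the Ahr-null group of males and 19, 24 and 26 in that of females. In scaled levels this was 0.167 to 0.765 CPM in controls and 0.907 to 1.75 CPM in Ahr-null livers, with no overlap and with Ahr-null female replicate 1 the highest. The Ahr-null mean of 1.2801 ± 0.330 CPM was 3.48 times the control mean of 0.368 ± 0.241 CPM (SD, n = 6 each). The fitted log2 difference was 1.79 ± 0.39. Markers of keratinocytes and squamous epithelium, where grainyhead factors act, summed to 8.52 to 13.7 CPM in controls and 10.5 to 19.5 CPM in Ahr-null livers. The sum was highest in Ahr-null female replicate 1, which had the most Krt5, Krt10 and Trp63 but no count of Krt14. Dsp, the largest part of the sum in that liver (8.54 CPM), lay within the range of the other livers. Krt1 was at 0 in all livers but control male replicate 1. Their part in the Grhl1 level was not tested.

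Gm31508, the intergenic noncoding RNA, had 3, 6 and 7 counts in control males and 9, 2 and 5 in the females. The Ahr-null males had 48, 9 and 96 counts, and the Ahr-null females 2, 13 and 28. The lowest liver of all 12 in scaled level was Ahr-null female replicate 1 (0.184 CPM), and the other 5 Ahr-null livers (0.698 to 3.79 CPM) lay above every control (0.218 to 0.621 CPM). The Ahr-null mean was 1.48 ± 1.29 CPM against 0.403 ± 0.148 CPM in controls (SD, n = 6 each), a ratio of 3.68, and 4.32 without that liver. Its fitted log2 difference was 1.71 ± 0.54. The spread among Ahr-null livers was the widest, relative to the mean, of the 4 genes that were higher in them.

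Sntg2, the syntrophin gene, was at 7.07, 9.37 and 6.63 CPM in control males, and at 2.97, 5.67 and 3.996 CPM in the females. The Ahr-null males held 12.0, 12.2 and 7.18 CPM, and the Ahr-null females 4.78, 8.96 and 13.3 CPM. The genotypes overlapped in each sex and over all 12 livers, since Ahr-null female replicate 1 lay within the control females and Ahr-null male replicate 3 lay within the control males. The Ahr-null mean of 9.72 ± 3.32 CPM was 1.63 times the control mean of 5.95 ± 2.29 CPM (SD, n = 6 each), and 1.80 times without female replicate 1. Its fitted log2 difference was 0.78 ± 0.27.

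Within the sexes, control and Ahr-null males did not overlap for 6 of the 7 genes, all but Sntg2, where 13.9% of all tested genes did not overlap. Females did not overlap for 4 of the 7 (Grhl1, F730043M19Rik, Acp1 and Dus4l), against 19.1% of all tested genes. For Acp1 this rests on Ahr-null female replicate 1 at 23.7 CPM against the lowest control female at 24.1 CPM. The fitted log2 difference of Acp1 was -2.03 in males and -1.25 in females, that of Grhl1 0.997 and 2.59, that of Gm31508 2.44 and 0.99, and each of the 7 had the same sign in both sexes. The difference between the genotype effects of the sexes was tested with edgeR, as it was not used to choose the genes. None of the 7 passed (background 0.00733% of all tested genes, which is 1 gene), none had an unadjusted p under 0.05, and DESeq2 and limma-voom called none. The nearest was Grhl1, whose log2 effect was 1.59 ± 0.78 smaller in males (unadjusted p = 0.0605, edgeR adjusted p = 0.999). Gm31508 had an effect larger in males by 1.45 ± 1.08, and the other 5 genes differed by -0.78 ± 0.81 (Acp1) to 0.11 ± 0.55 (Dus4l), all with an adjusted p of 0.999. With standard errors of 0.46 to 1.08 these differences are poorly bounded.

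Males and females were then compared over both genotypes, another contrast that the choice did not use. With edgeR, 0 of the 7 genes passed, where 1.07% of all tested genes did, 1 of them had an unadjusted p under 0.05, and DESeq2 and limma-voom called none. That gene was Nampt, which was lower in males by 0.53 ± 0.23 on the log2 scale (edgeR adjusted p = 0.494). Sntg2 was 0.54 ± 0.27 higher in males (adjusted p = 0.563). Its control levels did not overlap between the sexes, at 7.69 ± 1.47 CPM in males and 4.21 ± 1.37 CPM in females (SD, n = 3 each), and it was the only one of the 7 of which this held, where 18.6% of all tested genes did not overlap. In Ahr-null livers the one gene without overlap was Grhl1, at 1.02 ± 0.192 CPM in males and 1.54 ± 0.176 CPM in females, where 11.2% of all tested genes did not overlap.

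Ahr-null female replicate 1 did not take 1 side for all 7 genes. Relative to the mean of the 3 control females, its level was 0.950 times for Acp1, 1.13 times for Sntg2 and 1.33 times for Nampt. It was 7.17 times for Grhl1, 3.72 times for F730043M19Rik and 0.210 times for Dus4l, so these 3 genes were displaced from the control females in the direction of the other Ahr-null females, Grhl1 and Dus4l beyond them. Gm31508 had 2 counts in it. Cyp1a2, at 102.1 CPM in this liver, was under every control. Over 653 other genes called by genotype in the fit without this liver, its median position was 0.406 on a scale where the control females are 0 and the other Ahr-null females 1. Those genes were called from the other livers, and the same females set 0 and 1. This choice alone can pull a left-out liver below 1, so nothing is read from 0.406. Acp1 lay at 0.0281 on that scale, but this liver is shown apart because of its Acp1 level. Nampt (-0.627) and Gm31508 (-0.594) lay lower, Sntg2 (0.160) and F730043M19Rik (0.802) higher, and Grhl1 and Dus4l (5.27) beyond 1. The median position was also taken within each sex over the 6 to 287 genes called without the liver in question. It ran from 0.212 (Ahr-null male replicate 2) to 1.33 (Ahr-null male replicate 3) for the other 5 Ahr-null livers. Each liver has its own set of genes here, so these values do not rank the livers. The summed neural markers, Spp1, Epcam and Sox9 were high in female replicate 1, and their part in the levels of the 7 genes was not tested.

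**Figure D2:**
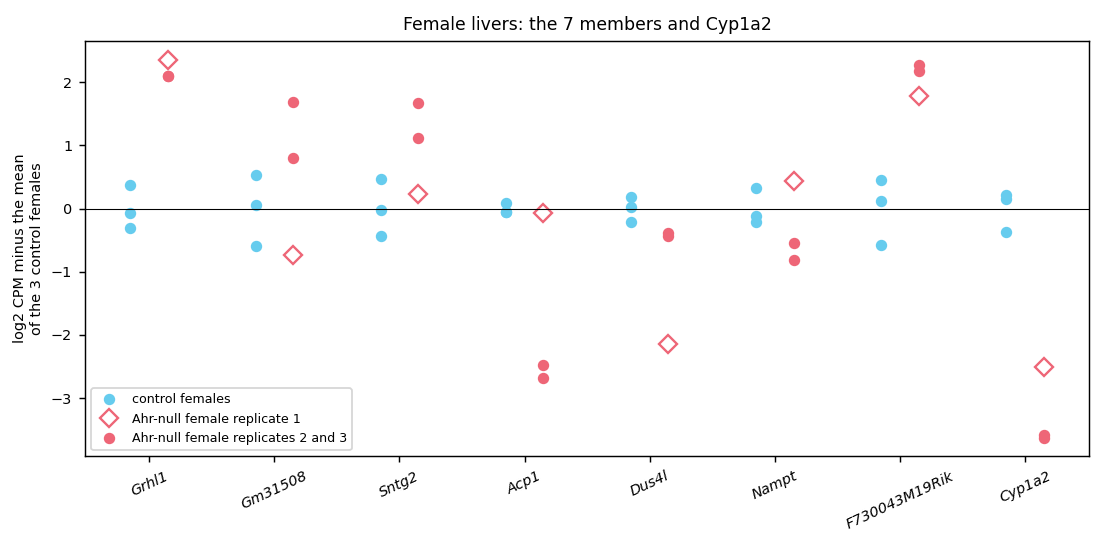
Level in the 6 female livers of the 7 genes and Cyp1a2, as log2 CPM (prior count 2) minus the mean of the 3 control females. Ahr-null female replicate 1 (open diamond) lies near the controls for Acp1 and Sntg2, below them for Dus4l and Cyp1a2, and above them for Grhl1 and F730043M19Rik.

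The count table holds 127 genes within 12 Mb of Ahr, of which 33 had no count and 61 were tested, 45 of them on the low-coordinate side of Ahr and 15 on the other. Besides Ahr and the 7 genes, 53 were tested, and these were not named by the rule. Of the 53, 1 was called by genotype in edgeR (1.89%). The share was 5 of 407 on the rest of chromosome 12 (1.23%) and 136 of 13153 on other chromosomes (1.03%). Taking out 7 genes chosen for their genotype difference lowers the counts of the 53 beforehand, so these counts cannot say whether the region differs. Over all 61 tested genes of the window, the 7 included, 3 were called (4.92%), and 7 of 61 (11.5%) without Ahr-null female replicate 1. The 53 had a median log2 difference of 0.09, against 0.04 over all tested genes, and without Ahr-null female replicate 1 the medians were -0.10 and 0.02. At an unadjusted p under 0.05 there were 6 of the 53, against 2088 of all 13641 tested genes. Without Ahr-null female replicate 1 it was again 1 of 53 called (4.78% of all tested genes), with 15 of 53 at an unadjusted p under 0.05, against 3306 of 13877. The count was 0 in 9 of the 12 fits that leave out 1 liver, namely all but those without Ahr-null female replicate 1, Ahr-null female replicate 3 or Ahr-null male replicate 2, and it was 0 with limma-voom.

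**Figure D3:**
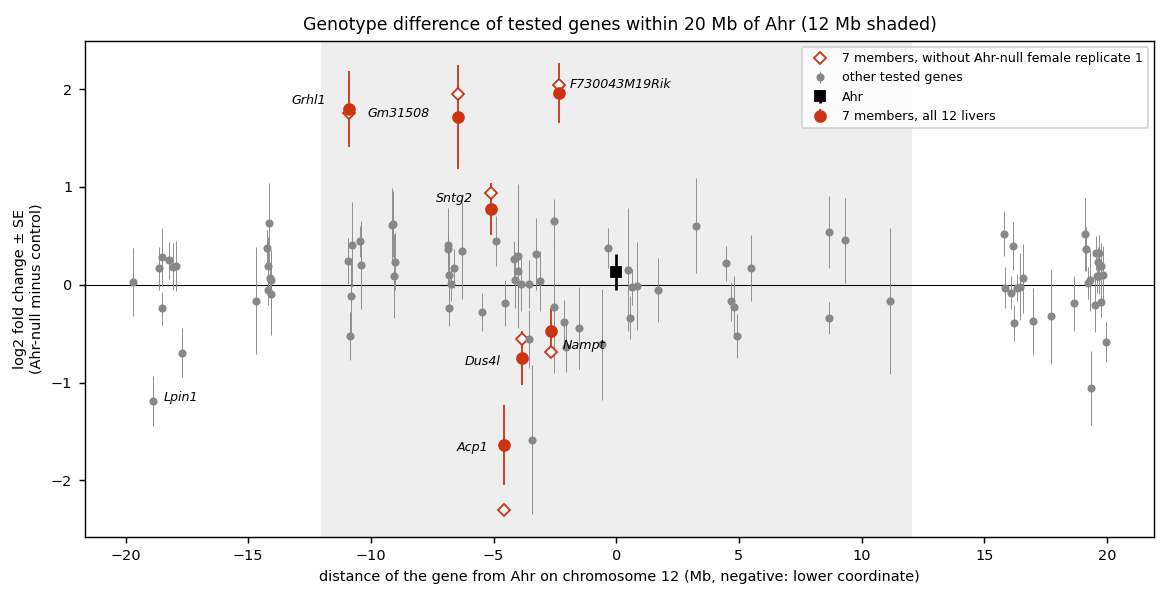
Log2 difference between Ahr-null and control livers with its SE for the tested genes reported here within 20 Mb of Ahr, against the distance from Ahr in Mb (negative is the lower coordinate), with 12 Mb shaded. The 7 genes (red) lie left of Ahr on both sides of 0 among genes that mostly lie near 0. Open diamonds show the 7 without Ahr-null female replicate 1.

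Grhl1 and Gm31508 could enter the tested genes only through the Ahr-null livers, as did F730043M19Rik. The filter asked for about 0.687 CPM of the unscaled total in at least 3 libraries, and controls reached it in 1 liver for Grhl1, in none for Gm31508 and in 2 for F730043M19Rik. Acp1, Dus4l, Nampt and Sntg2 reached it in all 12 livers. At the border of the 12 Mb, the outermost tested genes inside were Taf1b on the low side (10.9 Mb, 0.24 ± 0.24) and Nova1 on the high side (11.2 Mb, -0.17 ± 0.75). The first ones outside were Gm4419 (14.1 Mb, -0.09 ± 0.42) and G2e3 (15.8 Mb, 0.52 ± 0.23).

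The genes next to the 7 were measured to see how far along the chromosome each difference reached. Acp1, Dus4l and F730043M19Rik each start within 0.1 kb of a gene on the other strand. Sh3yl1 starts 0.079 kb from Acp1 and was at 3.95 ± 1.39 CPM in controls and 3.48 ± 1.46 CPM in Ahr-null livers (SD, n = 6 each). Its log2 difference was -0.19 ± 0.24 (edgeR adjusted p = 0.764), beside -1.64 ± 0.41 for Acp1. Sh3yl1 was at 4.32 CPM in Ahr-null female replicate 1, within the range of the control females (4.08 to 6.33 CPM), as well as of the other Ahr-null females (3.37 and 5.80 CPM). Cog5, a subunit of a Golgi tethering complex, starts 0.043 kb from Dus4l and was at 8.51 ± 0.994 and 5.92 ± 3.16 CPM (-0.56 ± 0.29, adjusted p = 0.392). In Ahr-null female replicate 1 Cog5 was at its highest of all 12 livers, 11.1 CPM, where Dus4l was at its lowest. Without that liver the log2 difference of Cog5 was -0.81 (edgeR adjusted p = 0.0680), the same sign as the -0.55 of Dus4l. Among the other Ahr-null livers, male replicate 2 held 8.22 CPM of Cog5, within the control range. The rest held at most 5.58 CPM, below the lowest control at 7.51 CPM. Atxn7l1 starts 0.096 kb from F730043M19Rik and was at 14.6 ± 2.27 and 11.2 ± 3.83 CPM (-0.39 ± 0.23, adjusted p = 0.460), the opposite sign to F730043M19Rik. Of the other tested neighbours reported here none passed, and they ran from Klf11 beside Grhl1 (-0.52 ± 0.24, adjusted p = 0.334) to Sypl beside F730043M19Rik (0.65 ± 0.23, adjusted p = 0.200). Acp1 shares 529 exonic bases with Alkal2 on the opposite strand, a gene with 0 to 2 counts per library.

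**Figure D4:**
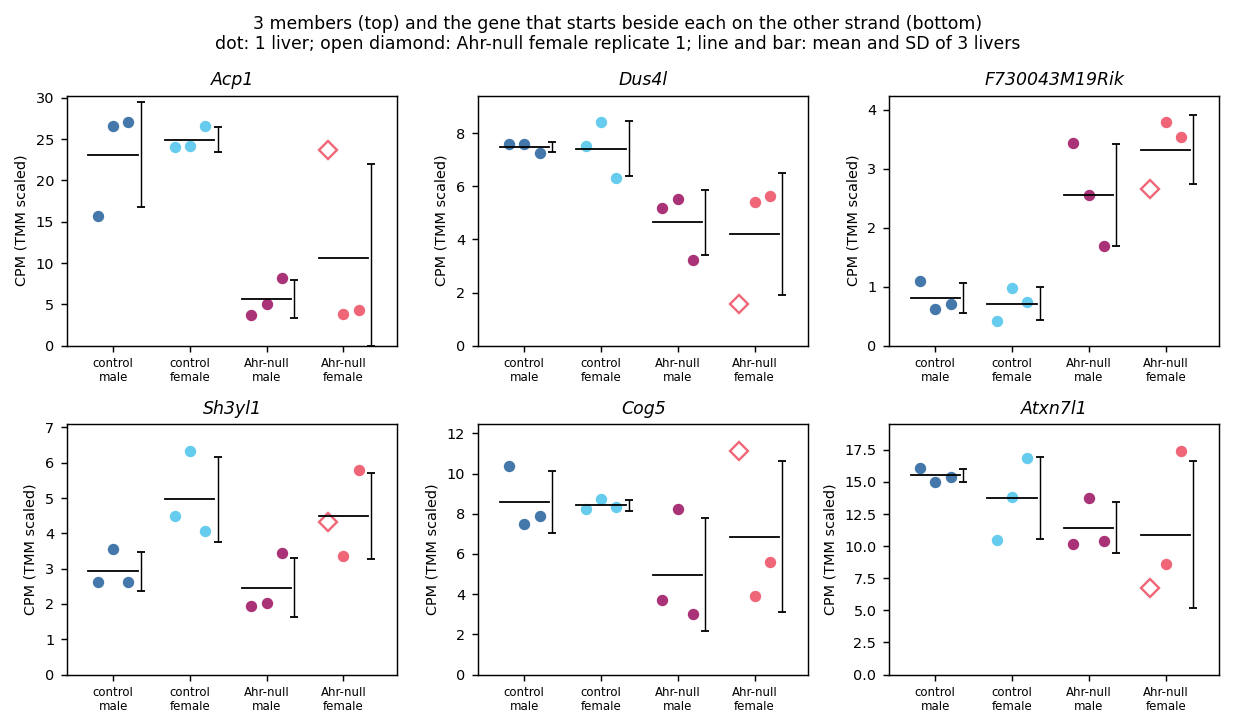
Level (CPM after TMM scaling, linear axis from 0) of Acp1, Dus4l and F730043M19Rik above and of the gene starting beside each on the other strand below, with 1 point per liver and the mean and SD of 3. Acp1 is under 9 CPM in 5 Ahr-null livers while Sh3yl1 overlaps between the genotypes in each sex, and Ahr-null female replicate 1 (open diamond) is lowest for Dus4l and highest for Cog5.

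The genes most like each of the 7 were taken as those with the smallest mean absolute difference of standardised log2 CPM over the 12 livers, among the 10931 genes whose log2 CPM averaged 1 or more, where the median gene was at 0.991 to 1.16. The nearest to Acp1 was L3hypdh (0.208), a hydroxyproline dehydratase gene that is also on chromosome 12 but 36.5 Mb from Ahr, followed by the transcription factor Hlf (0.266) and Pgap1 (0.349). L3hypdh was at 14.3 CPM on average in controls, 7.70 CPM in the other Ahr-null livers and 15.6 CPM in Ahr-null female replicate 1. The nearest to Dus4l were Atr (0.189), a DNA damage kinase, Gm10277 and Myl4, and to Nampt they were Tenm3 (0.248), Id4 and March7. F730043M19Rik had Npdc1 (0.337) and Poglut1 (0.390) among its 3 nearest, and Grhl1 was nearest to Pcolce (0.324), Zfp750 and Ppil1. Gm31508 was nearest to St5 (0.302), Abca8b and Igfbp1, and Sntg2 to Alg8 (0.330), Osmr and Unc13b. Apart from L3hypdh, the genes listed lie on other chromosomes. Grhl1, Gm31508 and F730043M19Rik were below that level and so could not be listed themselves.

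Genes that share a family or a function with the coding genes were counted next. Of 16 other tested genes of NAD synthesis and use, none was called by edgeR, 5 had an unadjusted p under 0.05 (2088 of all 13641 genes did), DESeq2 called 2 (587 over all genes) and limma-voom 0. The 2 were Qprt, which makes nicotinic acid mononucleotide from quinolinate (0.75 ± 0.21, edgeR adjusted p = 0.125), and Nnmt, which methylates nicotinamide (1.283 ± 0.416, edgeR adjusted p = 0.173). The list's median was -0.13. Of 10 other syntrophins and members of the dystrophin complex, edgeR, DESeq2 and limma-voom called none, 1 had an unadjusted p under 0.05, and the median was 0.04. Sntb1 of that list was at -0.46 ± 0.32 (edgeR adjusted p = 0.535), and at -0.91 (adjusted p = 0.0169) without Ahr-null female replicate 1, where Nadk2 of the NAD list, at -0.44 ± 0.32 (adjusted p = 0.548) in the full fit, was at -0.83 (adjusted p = 0.0388).

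Of 3 other tRNA dihydrouridine synthases none was called by the 3 tools and 1 had an unadjusted p under 0.05, Dus2 (0.56 ± 0.18, edgeR adjusted p = 0.164), with a list median of 0.12. Of 8 other protein phosphatases none was called by the 3 tools and 1 had an unadjusted p under 0.05, Ptpn1 (0.37 ± 0.16, edgeR adjusted p = 0.283), with a median of 0.02. Grhl2, the one other tested grainyhead gene, was at 0.07 ± 0.43 (edgeR adjusted p = 0.962). Of 5 tested genes regulated by the receptor, 2 were called, Cyp1a2 and Cyp1a1 (-2.45 ± 0.40, edgeR adjusted p = 0.0148), and both were lower. The median of these 5 was -0.01.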

How the data were processed

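The 7 genes, the gene lists and the rules below were chosen with earlier results of these data known. The authors deposited raw counts per gene for 12 libraries, and also log2 values that were variance-stabilised with DESeq2, per the file headers. The submitters' processing notes name STAR 2.7.8, DESeq2 1.28.1, Trim Galore 0.6.5 and FastQC 0.11.8, and the build GRCm38. Which program counted reads, with which strand setting and annotation, is not given in the sources used here.

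Counts were fitted with edgeR 4.0.16 (quasi-likelihood, robust) in R 4.3.3. Genes were filtered by group with filterByExpr and libraries scaled by TMM. The model had a mean for each of the 4 groups, and p-values were two-sided and adjusted by Benjamini-Hochberg over 13641 genes, with 0.05 as threshold. Differences are Ahr-null less control, or male less female, averaged over the other factor. Their SE was derived from the test, as the absolute log2 difference divided by the square root of the quasi-likelihood F. The procedure was also run on simulated counts in which no library stood apart, so that run does not cover the livers with neural transcripts. Chi-squares of replicate pairs per degree of freedom were 22.2 to 248, so none was counted as 1 library. GENCODE positions matched 27225 genes by Ensembl ID. Of the count table, 7277 genes had no count.

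Named genes were the 7, Ahr, Cyp1a1 and Cyp1a2, called genes of the window, tested neighbours of the 7, the genes at the 12 Mb border, genes with overlapping exons, the 3 most like each of the 7, and up to 4 per list with the smallest p, not all of which are reported here. Sntb1 and Nadk2 were added after their values were seen, as the calls made in their lists without Ahr-null female replicate 1, and Lpin1 as the call added by a wider window. Other marker lists, as summed CPM in controls and Ahr-null livers, were Kupffer cells (217 to 496 and 242 to 467), lymphocytes (2.95 to 9.69 and 9.46 to 23.3), endothelium (120.1 to 151 and 86.7 to 159), stellate cells (190.2 to 428 and 241 to 815) and 4 red blood cell genes (56.2 to 196 and 101 to 640.3). Alternatives were other scalings, filters and windows, DESeq2 1.42.0, limma 3.58.1 (voom, and on the deposited log2 values), edgeR without robust estimation, the longer motif, and leaving out libraries.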

Additional observations from a re-analysis of the deposited data

Results flagged for a closer look

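Within each group of 6 livers the gap between the extreme liver and its nearest neighbour was divided by the range of the group, and shares above Dixon's critical value for 6 values are given here. Chance gives such a gap in about 1 in 20 groups. In controls, Acp1 was lowest in control male replicate 1 at 15.7 CPM, with a gap share of 0.740. In Ahr-null livers it was highest in Ahr-null female replicate 1 at 23.7 CPM, with a gap share of 0.775. That liver is shown apart because of its Acp1 level, so this gap restates what was already known of it. Nampt was also highest among Ahr-null livers in Ahr-null female replicate 1, at 32.2 CPM, with a gap share of 0.707. Both livers held the neural transcripts described above, whose part in these levels was not tested.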

How the results depend on the processing

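No paired analysis was possible because the labels give the groups no shared replicate numbers. The 144 genes called by genotype over the whole table (72 higher, 72 lower) became 587 with DESeq2, 1053 with library size alone (986 higher, 67 lower), 432 without both livers with neural transcripts, and 6 to 663 when 1 liver was left out, with 6 without Ahr-null male replicate 1 and 663 without Ahr-null female replicate 1. The 1 called gene of the 53 near Ahr became 4 with library size alone, 0 with limma-voom, 2 within 20 Mb (with Lpin1) and 0 to 1 when 1 liver was left out. The promoter motif count fell from 5 to 1 with the longer core. No gene of the 7 passed for the interaction or for sex under any alternative run.

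Library size alone gave the opposite sign for the sex difference of F730043M19Rik (0.18) and for the genotype difference of Nampt (0.087), Sh3yl1 (0.33), Atxn7l1 (0.070), Klf11 (0.018), Sntb1 (0.080) and Nadk2 (0.094). The deposited values did so for the sex difference of Grhl1 (-0.016) and for Grhl2 (-0.0022). Leaving out both livers with neural transcripts did so for the interaction of Acp1 (0.37), Dus4l (-0.28) and Nampt (0.18), for the sex difference of Acp1 (0.30) and Dus4l (-0.12), and for Ahr (-0.0036). With 1 liver left out, signs turned in the ranges of the interaction of Acp1 (-1.16 to 0.58) and Dus4l (-0.29 to 0.37), of the sex difference of Acp1 (-0.68 to 0.20), Dus4l (-0.11 to 0.21), F730043M19Rik (-0.22 to 0.057) and Grhl1 (-0.026 to 0.39), and of the genotype difference of Grhl2 (-0.19 to 0.25), Nova1 (-0.86 to 0.21) and Gm4419 (-0.26 to 0.12). None of the tested values among these passed under the alternative, and the cause was not tested.

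The genotype differences of the other 6 genes kept their sign under all alternatives run: with 1 liver left out Acp1 ran from -2.30 to -1.44, Dus4l from -0.88 to -0.55, F730043M19Rik from 1.81 to 2.09, Gm31508 from 1.32 to 1.95, Grhl1 from 1.60 to 2.04 and Sntg2 from 0.58 to 0.94. Under the other alternatives Acp1 ran from -2.41 to -1.14, Dus4l from -0.83 to -0.26, F730043M19Rik from 1.13 to 2.48, Gm31508 from 0.70 to 2.21, Grhl1 from 0.82 to 2.23 and Sntg2 from 0.61 to 1.27. The values nearest 0 of Acp1 and Dus4l came from library size alone. The lowest values of the 4 genes that were higher came from the deposited values. Those are variance-stabilised, so their differences are on another scale than the fitted log2 differences of counts. Cyp1a2 passed under all of them. Depth limits Grhl1, Gm31508 and F730043M19Rik, with 2 to 13 counts per control library.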
